A study of Mus musculus with 3 samples.

Results

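The splicing factor and hnRNP genes described here were the protein-coding genes of the GENCODE M1 annotation (mm9) whose symbol starts with Hnrnp, Srsf, Sf3a, Sf3b, Snrp or Prpf, in all 62 of 22350 coding genes on chromosomes 1 to 19 and X. They comprised 18 hnRNP genes, 11 SR protein genes, 4 genes of the U1 and U2 snRNP proteins, 8 Sm protein genes, 3 SF3a and 5 SF3b subunit genes and 13 Prpf genes. Pre-mRNA splicing is carried out by the spliceosome, which assembles on each intron from small nuclear ribonucleoproteins (snRNPs) built on rings of Sm proteins and from many further proteins. SR proteins mostly promote the use of nearby splice sites by binding exons, and hnRNP proteins coat nascent RNA and often repress or redirect the choice of sites. Most of the core spliceosome genes are active in all cell types, macrophages included, while some of the regulators are restricted to certain tissues.

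Pol_II phosphorylated at serine 5 of its C-terminal repeat (Ser5) is the form found where transcription starts and in early elongation. It was mapped by ChIP-Seq, the sequencing of DNA pulled down by an antibody (ab5131, against the phospho-S5 repeat) from cross-linked chromatin, in macrophages grown for 7 days from the bone marrow of female Fvb mice. 3 libraries were used, namely Ser5 from untreated cells, Ser5 from cells given 10 ng/ml LPS (lipopolysaccharide, a bacterial cell-wall component that activates macrophages) for 2 h, and an input library of untreated cells, which is chromatin sequenced without an antibody. There was 1 library per condition, so differences have no replicate check, no test was run, and each interval is a 95% interval for counting error only. Differences were instead called by a rule of size, an LPS to untreated ratio of at least 1.5 in either direction and 20 or more tags when the Ser5 libraries were added.

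The libraries held 7616771 (untreated Ser5), 6249819 (Ser5 after LPS) and 7533308 (input) tags on the chromosomes used, and tags were counted by their 5′ end as TPM, tags per 1000000 tags of the library. The 10 LPS-induced genes used to check the labels, Ccl5 and Tnf among them, all had a promoter ratio above the rule, with a median of 23.3. Of 10 macrophage markers 9 were found in the annotation, and these 9 had a Ser5 peak at the promoter in both libraries. Of 14 markers of other cell types 1, the endothelial gene Pecam1, had one. In a bulk culture fewer cells carrying Ser5 at a gene and less Ser5 per cell cannot be told apart.

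Sequences from 250 bases before to 50 bases after the annotated gene 5′ end are shown for 4 of the genes, read from the mm9 genome along the gene's own strand. Srsf2 had the highest untreated density at its promoter, Prpf19 the lowest LPS to untreated ratio there and Prpf38b the highest, and Snrpn had no Ser5 tags within 1 kb of its 5′ end. They lie at chr11:116714359-116714658 (minus strand, Srsf2), chr19:10969483-10969782 (plus strand, Prpf19), chr3:108714596-108714895 (minus strand, Prpf38b) and chr7:67285056-67285355 (minus strand, Snrpn). Capitals mark every match, on either strand, to one of the 10 motifs searched, namely the GC box (GGGCGG), ETS (CCGGAAG), NRF1 core (GCATGCG), YY1 (AAGATGG), NF-Y (CCAAT), the TATA box (TATAAA), the Zbtb33 type (TCGCGAG), AP-1 (TGANTCA), and the kappa B and ISRE motifs by name.
Srsf2: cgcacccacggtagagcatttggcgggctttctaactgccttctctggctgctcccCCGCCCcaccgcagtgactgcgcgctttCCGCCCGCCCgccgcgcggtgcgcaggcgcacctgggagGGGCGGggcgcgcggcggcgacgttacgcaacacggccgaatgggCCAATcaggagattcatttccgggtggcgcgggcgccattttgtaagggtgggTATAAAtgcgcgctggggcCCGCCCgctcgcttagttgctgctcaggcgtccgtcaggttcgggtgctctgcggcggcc
Prpf19: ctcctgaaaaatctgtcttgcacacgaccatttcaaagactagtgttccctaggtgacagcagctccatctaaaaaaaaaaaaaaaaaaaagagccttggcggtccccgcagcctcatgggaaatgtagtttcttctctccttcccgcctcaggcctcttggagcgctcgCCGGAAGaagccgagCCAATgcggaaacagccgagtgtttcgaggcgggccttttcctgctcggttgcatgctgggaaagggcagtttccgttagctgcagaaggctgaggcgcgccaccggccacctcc
Prpf38b: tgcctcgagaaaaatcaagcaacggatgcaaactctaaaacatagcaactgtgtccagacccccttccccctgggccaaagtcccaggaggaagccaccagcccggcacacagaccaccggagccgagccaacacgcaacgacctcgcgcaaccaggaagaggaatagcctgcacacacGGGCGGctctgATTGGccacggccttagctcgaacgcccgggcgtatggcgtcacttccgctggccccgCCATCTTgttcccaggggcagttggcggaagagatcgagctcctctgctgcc
Snrpn: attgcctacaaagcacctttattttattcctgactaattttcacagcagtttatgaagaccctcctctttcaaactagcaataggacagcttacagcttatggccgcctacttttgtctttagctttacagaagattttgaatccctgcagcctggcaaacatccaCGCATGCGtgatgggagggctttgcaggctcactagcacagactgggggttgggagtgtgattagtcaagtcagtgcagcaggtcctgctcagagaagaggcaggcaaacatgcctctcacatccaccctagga

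The first 3 windows held more CpG than the last. For Snrpn only the window at the gene 5′ end was read, not that at its other coding start 135063 bp downstream. The Srsf2 window held 39 CpG dinucleotides and matches to the GC box at 5 places, 2 of them overlapping, with 1 NF-Y and 1 TATA match. Prpf19 had 17 CpG with 1 ETS and 1 NF-Y match, and Prpf38b had 21 CpG with 1 GC box, 1 NF-Y and 1 YY1 match. Snrpn held 3 CpG, and its matches were the NRF1 core on both strands of the same 8 bases, which overlap.

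Over all 62 windows of this length the median CpG number was 21.5, against 11 over all 22350 coding genes. The observed to expected CpG ratio was above 0.6 in 52 genes (83.9%, against 45.2% of all genes). The 10 genes at or under that ratio were Hnrnpf, Hnrnpk, Hnrnpl, Hnrnpm, Prpf6, Snrpa1, Snrpd2, Snrpn, Srsf10 and Srsf12. An ETS match was present in 19 windows (30.6%, against 10.8% of all promoters), a GC box in 36 (58.1%, against 43.5%) and an NF-Y match in 32 (51.6%, against 37.9%). TATA matches were found in 5 windows (8.06%, against 13.4%), AP-1 in 2 (3.23%, against 6.93%), kappa B in 4 (6.45%, against 8.90%) and ISRE in 0 (against 3.79%). NRF1, YY1 and Zbtb33-type matches were in 3, 4 and 3 windows (4.84%, 6.45% and 4.84%, against 4.29%, 6.72% and 2.55%). A match here is a description of letters only, and CpG-rich windows hold GC-rich letters more often.

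The first question was how much Ser5 the promoters of these genes carried. A Ser5 peak, as called by the authors, overlapped the window within 1 kb of the gene 5′ end in 59 of the 62 genes in untreated cells and in the same 59 after LPS (48.0% and 45.9% of all coding genes). The genes without one were Hnrnpm, Snrpn and Srsf12. They all belong to the 10 genes with a CpG-poor window at the annotated 5′ end, but the others of those 10 had a peak. Ser5 density was at least 5 times the input in 56 genes before and 49 genes after LPS (41.5% and 36.6% of all coding genes). The median density was 18.2 TPM per kb in untreated cells, 14.5 after LPS and 1.19 in the input. The untreated density of 60 genes lay above the median of all coding genes and that of 30 genes in the top 10%. In 21 genes the window also held the 5′ end of another coding gene, and 36 genes shared neither promoter nor span with one. Tags in a shared window cannot be assigned to one of the genes, as for Srsf7 with Ttc39d and Prpf4 with Cdc26. Hnrnpab and Hnrnpm overlap Agxt2l2 and March2 in their span. Of these 36, 34 had a peak in each Ser5 library, and 34 before and 29 after LPS were at least 5 times the input.

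**Figure D1:**
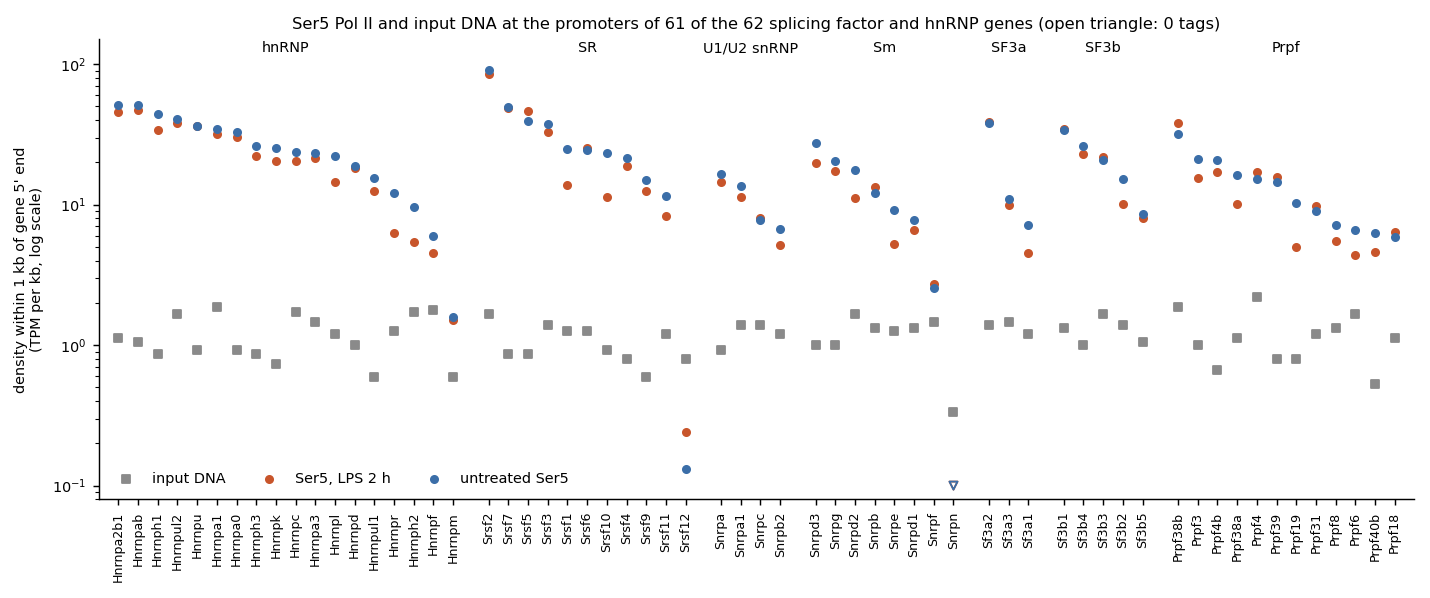
Density of tags within 1 kb of the gene 5′ end (TPM per kb, log scale) for 61 of the 62 genes, grouped by role and ordered by the untreated value, with blue points for untreated Ser5, red points for Ser5 after LPS, grey squares for input DNA and an open triangle for 0 tags. Ser5 points lie above the input for all genes plotted but Srsf12 and Snrpn, and the spread between genes (up to 90.2 in Srsf2) is wider than the gap between the 2 Ser5 libraries.

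Among the hnRNP genes the untreated promoter density had a median of 24.5 TPM per kb. Hnrnpa2b1, whose protein binds nascent RNA and also sorts RNAs in the cytoplasm, was highest with 778 tags in untreated cells, 569 after LPS and 17 in the input. Its untreated density was 51.1 TPM per kb (47.5 to 54.8), and its window is shared with the heterochromatin protein gene Cbx3. Hnrnpab (775, 586 and 16 tags) and Hnrnph1 (677, 425 and 13 tags), which bind AU-rich and G-rich RNA, followed. By percentile among all coding genes these 3 stood at 99.5, 99.5 and 99.2. The lowest hnRNP gene, Hnrnpm, had 24, 19 and 9 tags at its gene 5′ end and no peak there.

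The SR genes held the highest single value. Srsf2, an exon-binding activator of splicing, had 1375 tags in untreated cells, 1064 after LPS and 25 in the input, which is 90.2 TPM per kb (85.5 to 95.1) before LPS and 85.1 (80.0 to 90.4) after it. It ranked 22nd of all coding genes, and its window also holds the 5′ end of Mfsd11. Srsf7 (754, 610 and 13 tags), Srsf5 (602, 580 and 13 tags) and Srsf3 (569, 410 and 21 tags), which encode further SR proteins, came next. At the other end Srsf12, a tissue-restricted SR protein that can inhibit splicing, had 2, 3 and 12 tags, fewer in both Ser5 libraries than in the input. The nearest untreated peak lay 32322 bp from its gene 5′ end.

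Genes of the snRNP core had lower medians, 10.7 TPM per kb for the U1 and U2 proteins and 10.6 for the Sm proteins. Snrpa, the U1 protein that binds a stem-loop of U1 RNA, had 251, 181 and 14 tags, and Snrpb2, a U2 stem-loop protein, had 103, 65 and 18. Of the Sm genes Snrpd3 was highest with 422, 247 and 15 tags. The windows of Snrpa and Snrpd3 are shared with BC024978 and 1110038D17Rik. Snrpf, at 39, 34 and 22 tags, carried the least Ser5 of the Sm genes with a peak. Snrpn, the imprinted Sm gene used mainly in neurons, had 0 tags in both Ser5 libraries and 5 in the input. A count of 0 allows up to 0.197 TPM per kb in untreated cells and 0.240 after LPS at a floor of 3 tags each, and the 95% interval reaches 0.242 and 0.295. The other annotated coding start of Snrpn, 135063 bp downstream, had 0, 1 and 1 tags.

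Subunits of SF3a and SF3b, which hold the U2 snRNP on the branch site, were far apart in level. Sf3a2, whose window is shared with Plekhj1, had 578, 481 and 21 tags and Sf3b1, the subunit that contacts the branch site, 515, 432 and 20. Sf3a1 had 109, 57 and 18 tags and Sf3b5, a short gene, 131, 100 and 16. All 8 were at least 5 times the input in untreated cells and 7 were so after LPS. The median was 20.7 TPM per kb over the SF3b and 10.9 over the SF3a genes.

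Among the Prpf genes, named after yeast precursor-RNA processing mutants, all 13 had a promoter peak in both libraries, with a median of 14.6 TPM per kb. Prpf38b, related to a factor of spliceosome activation, was highest with 485, 479 and 28 tags. Prpf18, which acts in the second step of splicing, was lowest with 89, 80 and 17. Prpf8, the large protein at the catalytic centre, was also low at 110, 69 and 20 tags, as was Prpf6 of the tri-snRNP at 101, 55 and 25.

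Where an annotation lists several coding starts, the gene 5′ end was not always where Ser5 was highest. For 38 genes the 5′ end was the coding start with most Ser5 tags over both libraries, for 18 it was another start within 1 kb and for 6 (Hnrnpf, Hnrnpk, Hnrnpm, Prpf6, Snrpn and Srsf11) one farther away. This choice of start was made after the values were seen. At Hnrnpm the window around the start 1468 bp downstream held 353 tags in untreated cells, 276 after LPS and 12 in the input, with a peak in both libraries. At Hnrnpk, a C-rich RNA binder, the start 1237 bp downstream held 619, 487 and 10 tags against 388, 254 and 11 at the 5′ end, whose window is only 74.2% unique in sequence. With these starts, 60 of the 62 genes had a Ser5 peak at a coding start, and Snrpn and Srsf12 had none.

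Hnrnpf, whose protein binds G-rich RNA, lies on the plus strand of chromosome 6 from 117850358 to 117875639. Its 5′ end held 91, 57 and 27 tags, whereas the coding start 7464 bp downstream held 461 in untreated cells, 380 after LPS and 15 in the input. The 5′ end of 4933440N22Rik lies on the other strand, 7420 bp from that of Hnrnpf, so the tags there cannot be assigned to one of the pair. A further maximum inside Hnrnpf, centred 16750 bp from the 5′ end, reached 42.3 TPM per kb in untreated cells and 35.8 after LPS, and no coding start is annotated there.

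Srsf11 (chromosome 3, minus strand, 157673437 to 157699603) and Prpf6 (chromosome 2, plus strand, 181326573 to 181390365) also had an inner coding start with more Ser5 tags than the gene 5′ end. The margin was small at Srsf11. At Srsf11 the gene 5′ end, shared with Lrrc40, held 176, 103 and 18 tags, and the coding start 4913 bp inside the gene 198, 126 and 20. At Prpf6 the 5′ end, shared with Znf512b, held 101, 55 and 25 tags, and the start 9448 bp inside it 206, 120 and 17. In the 500-bp bins on either side of the Prpf6 5′ end untreated Ser5 was 1.84 and 3.15 TPM per kb. The input was 1.86 and 2.92 there, so the 5′ end itself was near the input. The bin centred 750 bp downstream held 20.7 before LPS and 11.5 after it, and the 5′ end of Znf512b lies 935 bp downstream on the other strand. The window at the 5′ end of Samd10, on the other strand 7344 bp from that of Prpf6, held 136, 70 and 15 tags.

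**Figure D2:**
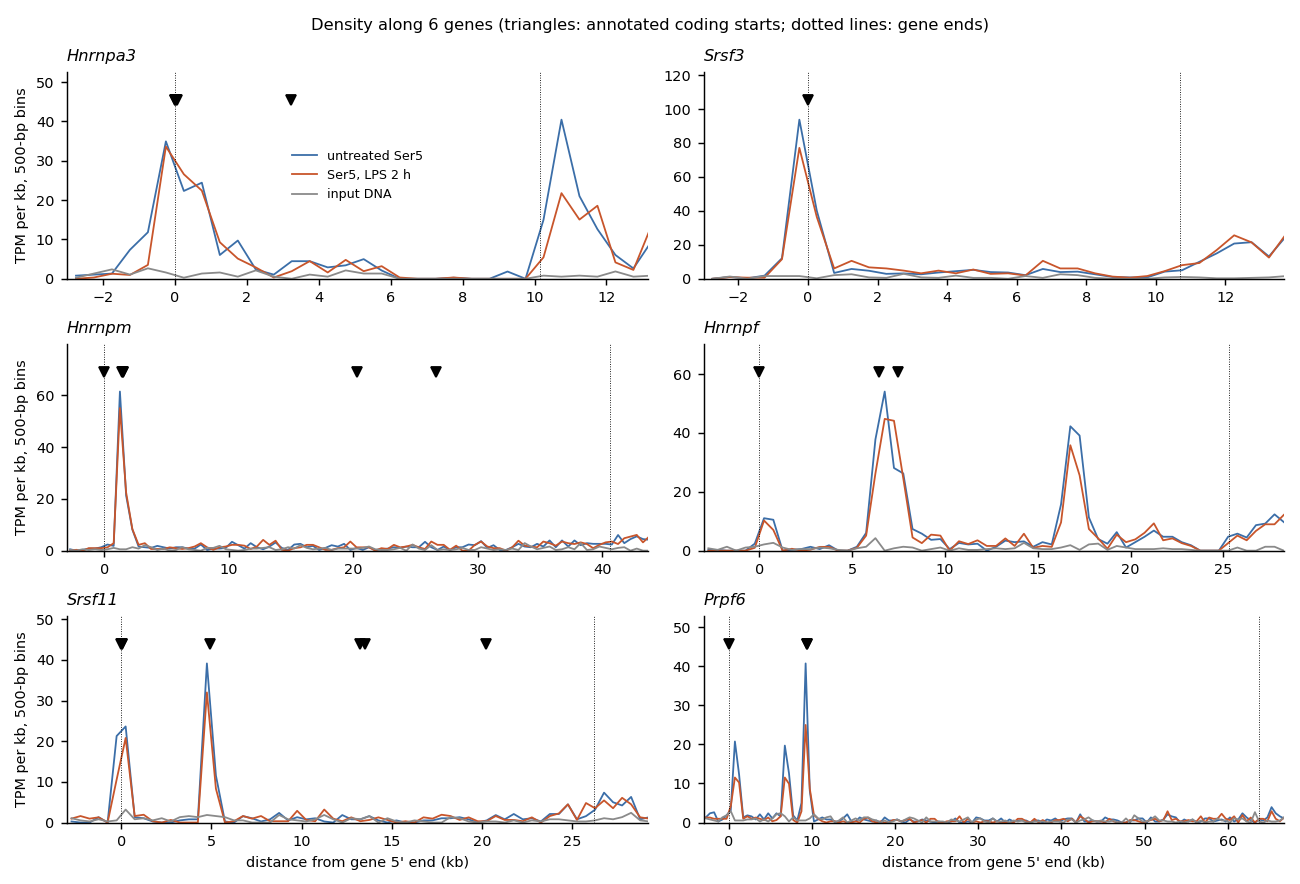
Density in bins of 500 bp (TPM per kb) along 6 genes by distance from the gene 5′ end (kb), with untreated Ser5 in blue, Ser5 after LPS in red and input in grey, triangles for annotated coding starts and dotted lines for the gene ends. In Hnrnpm, Hnrnpf, Srsf11 and Prpf6 the highest untreated bin (61.4, 54.1, 39.1 and 40.7 TPM per kb) lies inside the gene, and in Hnrnpa3 the bin past the 3′ end reaches 40.4.

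The second question was whether 2 h of LPS changed Ser5 at these promoters. The median LPS to untreated ratio was 0.876 (0.809 to 0.926) over the 60 genes with enough tags, and that of all 11419 coding genes with enough tags was 0.829. No gene was higher by the rule of size (8.32% of all coding genes were), and 12 were lower (29.0% of all coding genes were). The ratio was below 1 in 46 genes (70.5% of all coding genes). The counting interval lay below 1 in 22 genes (41.0% of all coding genes) and above 1 in 2, Prpf38b and Srsf5 (12.0% of all coding genes). Both shares of the splicing genes, 0 and 20.0%, were thus no higher than those of all coding genes. The sets are not matched for tag number, and genes with few tags pass a rule of size more easily by counting error. Median untreated promoter density was 18.2 TPM per kb over the splicing genes and 0.853 over all 22350 coding genes.

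When each library was instead scaled by its tags that lay in neither set of peaks, the median over all coding genes moved by 0.11 on the log2 scale to 0.892. The median over the splicing genes was then 0.943, the ratio was below 1 in 39 genes and 6 genes were lower. The other scaling multiplies every ratio by the same factor. The median of the splicing genes was therefore bound to stay 1.06 times that of all coding genes, and this is no separate check. The share of all coding genes past the rule moves with that factor too and is not given here.

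**Figure D3:**
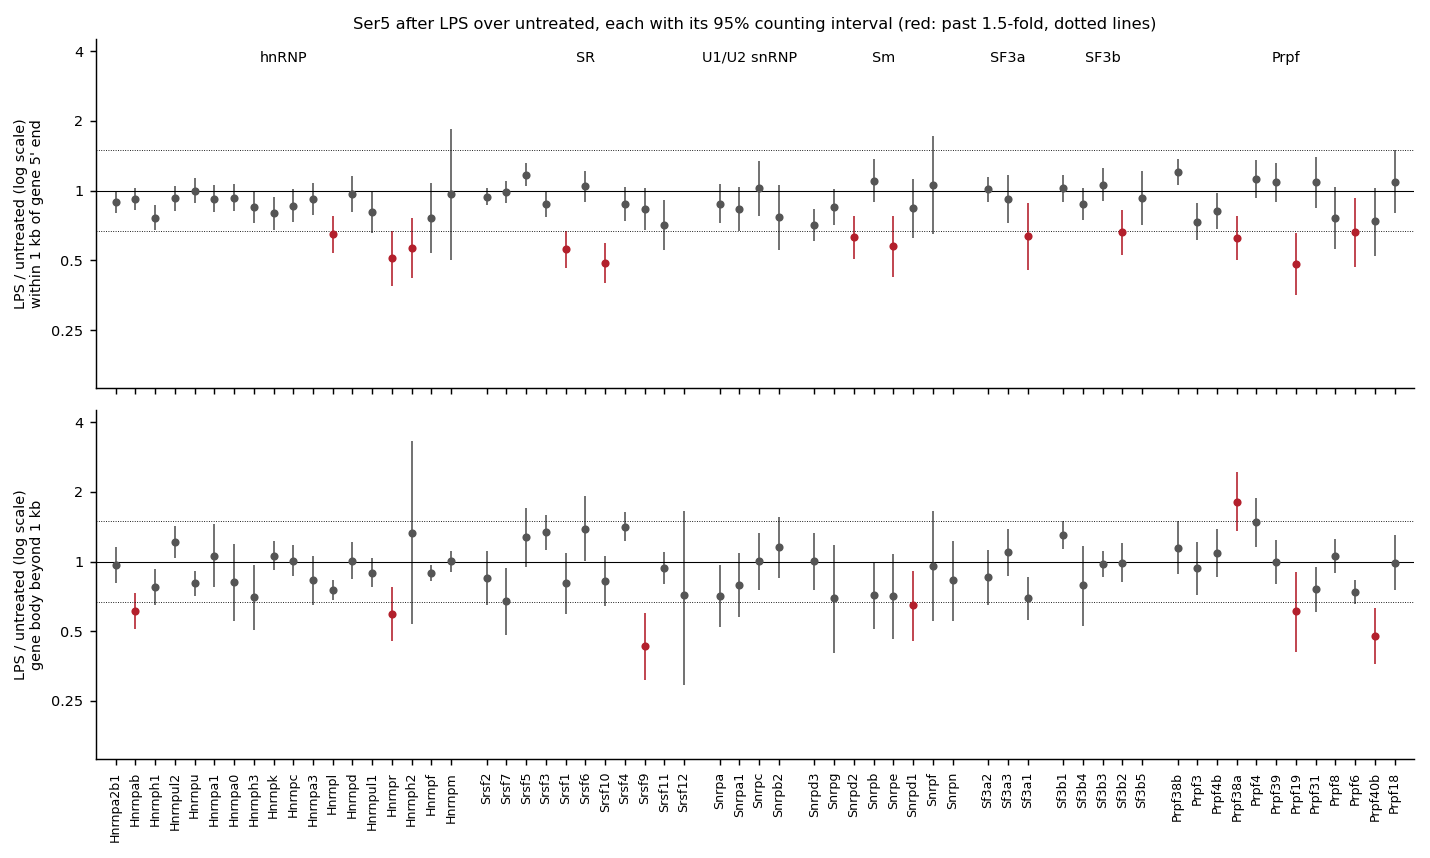
Ratio of LPS to untreated Ser5 (log scale) with its 95% counting interval within 1 kb of the gene 5′ end (upper panel) and in the gene body beyond 1 kb (lower panel) for each plotted gene with at least 20 tags, 1 of the 62 genes being left out, in red where past 1.5-fold (dotted lines). At promoters 12 genes are red and all of them are lower, and in gene bodies 6 are lower and 1, Prpf38a, is higher.

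The genes past the rule came from most of the roles, 3 of 18 hnRNP, 2 of 10 SR, 2 of 7 Sm, 1 of 3 SF3a, 1 of 5 SF3b and 3 of 13 Prpf genes, with 0 of 4 U1 and U2 genes. The lowest was Prpf19, the ubiquitin ligase at the core of the complex that remodels the active spliceosome, with 156 tags in untreated cells, 62 after LPS and 12 in the input. The ratio was 0.484 (0.355 to 0.654), and the density after LPS was still above that of the input. Srsf10, an SR protein that represses splicing when dephosphorylated, had 356, 143 and 14 tags (ratio 0.490, 0.400 to 0.596). Both lay on unshared promoters.

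Hnrnpr, which binds RNA in nucleus and cytoplasm, had 186, 78 and 19 tags (ratio 0.511, 0.387 to 0.669). Srsf1, the founding SR protein, had 377, 173 and 19 (0.559, 0.464 to 0.671), and Hnrnph2, the X-linked relative of Hnrnph1, 146, 68 and 26 (0.568, 0.419 to 0.762) in a window shared with Gla. The Sm gene Snrpe had 139, 66 and 19 tags (0.579, 0.425 to 0.781). These 6 genes stayed past the rule under each of the 7 alternative counts. A ratio of at least 2 was not among these, and a change of coding start could not move Prpf19, which has 1 such start.

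The other 6 were nearer to the threshold and were lost under at least 1 alternative. They were Prpf38a (0.624), Snrpd2 (0.630), Sf3a1 (0.637), Hnrnpl (0.650), Sf3b2 (0.662) and Prpf6 (0.664). At Hnrnpl, which binds CA-rich RNA, the choice of start decided the value. The window at the gene 5′ end held 341 tags in untreated cells and 182 after LPS, while that at the start used by most coding transcripts, 2349 bp downstream, held 347 and 279, a ratio of 0.980 (0.834 to 1.15). At the start with most Ser5 tags, 977 bp downstream, the ratio was 0.607 (0.515 to 0.713). At Prpf6 the ratio was 0.710 (0.562 to 0.893) at the inner start and 1.03 (0.494 to 2.11) within 500 bp of the gene 5′ end.

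At the other end the ratios were close to 1. Prpf38b had 485 and 479 tags, or 31.8 TPM per kb (29.0 to 34.8) before LPS and 38.3 (35.0 to 41.9) after it, a ratio of 1.20 (1.06 to 1.37). Srsf5 had 602 and 580 tags (1.17, 1.05 to 1.32). Prpf4 (1.12), Snrpb (1.11) and Prpf18 (1.10), which encode a tri-snRNP protein, an Sm protein and a late splicing factor, followed with intervals that include 1. Among relatives the values parted. Srsf1 and Srsf10 were at 0.559 and 0.490 while Srsf2, Srsf6 and Srsf7 were at 0.943, 1.05 and 0.986 with intervals that include 1, and Hnrnpu, a chromatin-bound hnRNP, was at 1.00 (0.881 to 1.13).

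The third question was how Ser5 was spread along the genes. For a profile in 100-bp bins each tag 5′ end was moved 75 bp along the tag's direction. The mean over the 62 genes was then highest just downstream of the gene 5′ end, in the bin from 0 to 99 bp. It was 86.6 TPM per kb in untreated cells and 83.5 after LPS. Over all coding genes the highest bin was the same, at 25.0 and 23.0. Upstream of the start the mean was still 52.1 TPM per kb in the 100 bp next to it, before LPS. Counted without that move, the share of promoter tags lying downstream of the 5′ end had a median of 56.2% over the splicing genes and 55.6% over all coding genes.

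**Figure D4:**
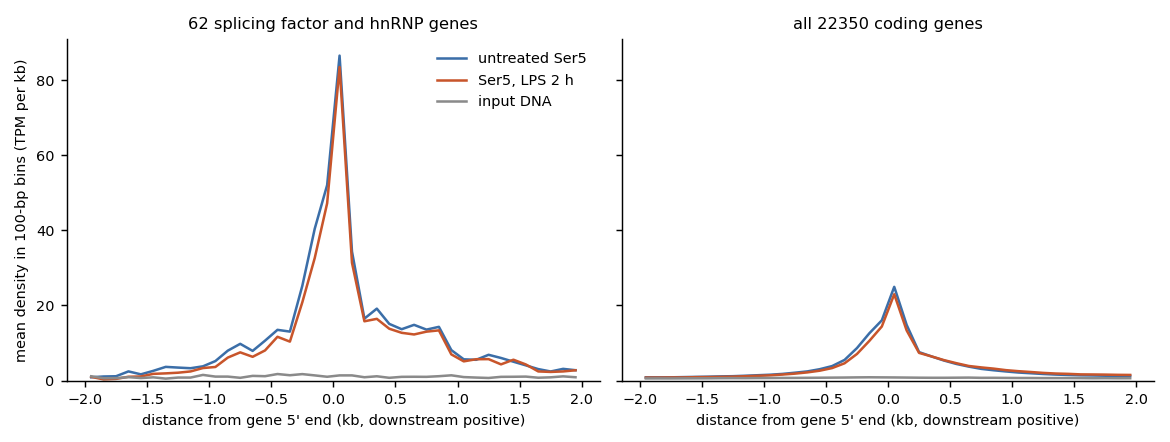
Mean density in 100-bp bins (TPM per kb) by distance from the gene 5′ end (kb, downstream positive) over the 62 genes (left) and all 22350 coding genes (right), with untreated Ser5 in blue, Ser5 after LPS in red and input in grey. Tag 5′ ends were moved 75 bp along the tag's direction. Both Ser5 curves peak in the bin from 0 to 99 bp, at 86.6 and 83.5 on the left and 25.0 and 23.0 on the right.

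The density within 1 kb of the 5′ end exceeded that of the body beyond 1 kb by a median of 9.92 times in untreated cells and 8.57 times after LPS, over the 58 genes with at least 20 body tags in each Ser5 library (6.98 and 6.41 times over all coding genes). Snrpd3 (30.9 before and 22.0 after LPS) and Prpf3 of the tri-snRNP (28.7 and 22.5) were among the highest. Snrpn, Hnrnpm and Hnrnpf were lowest at 0, 0.588 and 0.817 in untreated cells, and in Hnrnpm and Hnrnpf the inner start described above lies in the body.

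Ser5 in the body was low in most of these genes. Its median density was 1.71 TPM per kb before LPS, 1.58 after it and 0.684 in the input. It lay above the input by its interval in 48 of 61 genes in untreated cells (34.1% of all coding genes with a body), and was at least 5 times the input in 11 (6.28% of all coding genes with a body), of which 8 were hnRNP genes. Hnrnpl had the highest body density, 10.9 TPM per kb from 1054 tags (649 after LPS, 96 in the input), and untreated peaks covered 94.3% of its span. Hnrnpab, Hnrnpu and Hnrnph1 had 376, 600 and 329 untreated body tags. Over the 59 genes with a promoter peak the widest peak at the promoter had a median width of 1326 bp before and 1166 bp after LPS.

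The body ratio after LPS had a median of 0.915 (0.805 to 1.00) over 60 genes, against 0.886 over all 15239 coding genes with enough tags. By the rule of size 1 gene was higher (12.7% of all coding genes) and 6 were lower (25.3% of all coding genes). Scaled to tags outside peaks, 3 genes (Prpf38a, Prpf4 and Srsf4) were higher and 5 were lower. That scaling raises every ratio by the same factor, and the median over all coding genes moved from 0.886 to 0.954. These counts are thus no gain of the splicing genes over all coding genes. Hnrnpr and Prpf19 were lower by the rule at both promoter and body, and 10 genes were so at the promoter but not in the body. Among these 10, Snrpd2 had too few body tags to be called, 11 before and 5 after LPS.

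The gene that was higher, Prpf38a, a factor that the spliceosome needs for activation, had 80 body tags in untreated cells, 119 after LPS and 66 in the input. The ratio was 1.81 (1.35 to 2.44), but the untreated body did not exceed the input by its interval. At its promoter, which is shared with the replication gene Orc1, tags went the other way, from 246 to 126. Prpf4 was next at 123, 149 and 98 tags (1.48, 1.16 to 1.89). The interval of its untreated body density, 0.939 TPM per kb (0.781 to 1.12), overlapped that of the input, 0.757 (0.614 to 0.922). 3 SR genes followed. Srsf4 had 354, 410 and 161 tags (1.41, 1.22 to 1.63), Srsf6 75, 85 and 28 (1.38, 1.00 to 1.91), and Srsf3 256, 281 and 73 (1.34, 1.12 to 1.59).

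The lowest body ratio was that of another SR gene. Srsf9 had 144 body tags in untreated cells, 51 after LPS and 24 in the input (0.432, 0.307 to 0.598), while its promoter, with 230 and 157 tags, gave 0.832 (0.675 to 1.02). Prpf40b, a U1-associated protein, had 191, 75 and 101 (0.479, 0.361 to 0.628), and after LPS its body was no denser than the input. Hnrnpr had 170, 83 and 175 tags (0.595), no more than the input in either library. Hnrnpab, at 376, 188 and 52 (0.609, 0.509 to 0.728), stayed above the input in both. Prpf19 had 82, 41 and 46 tags (0.609, 0.408 to 0.897), and the sixth gene was Snrpd1 (98, 52 and 39 tags, 0.647). Prpf38a, Srsf9 and Srsf10 were the 3 genes whose promoter and body ratios differed most. At Srsf10 the body had 162, 110 and 83 tags (0.827, 0.644 to 1.06), against 0.490 at its promoter.

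**Figure D5:**
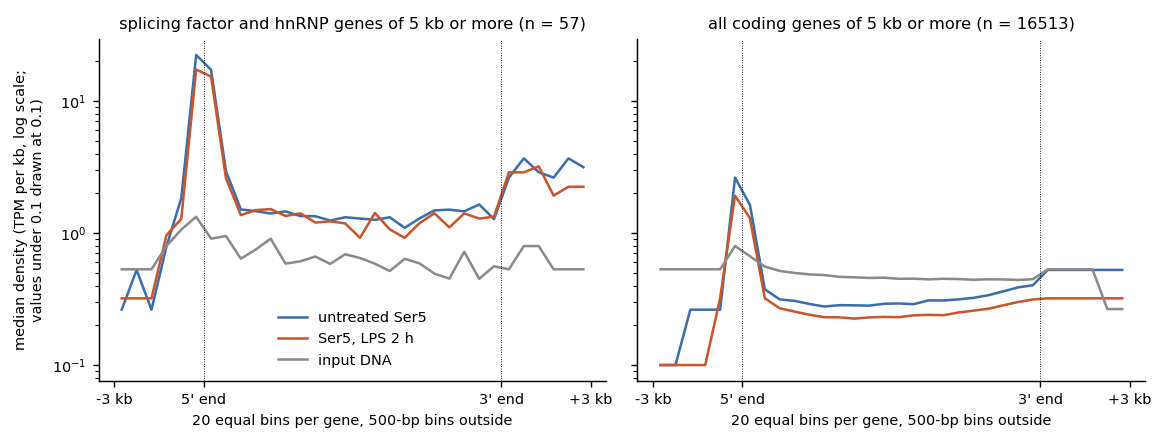
Median density (TPM per kb, log scale, values under 0.1 drawn at 0.1) in 20 equal bins per gene and 500-bp bins over 3 kb on either side, for the 57 splicing genes of at least 5 kb (left) and all such coding genes (right), with untreated Ser5 in blue, Ser5 after LPS in red and input in grey. On the left Ser5 drops from 17.2 in the first bin of the gene to between 1.09 and 1.65 from the third bin on and is at 2.63 to 3.68 past the 3′ end in untreated cells, where the input is at 0.531 to 0.797.

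Past the 3′ end Ser5 was denser again, a measure added after the profile along the genes was seen. The 2 kb after the annotated end were denser than the body in untreated cells in 37 of the 42 genes with enough tags and no other coding gene in that flank (63.7% of all coding genes of that kind), and at least 2 times as dense in 18 (29.8% of all coding genes of that kind). In the input this held for 21 of the 42. The median flank to body ratio was 1.74 in untreated cells, 1.59 after LPS and 0.984 in the input (1.35, 1.18 and 0.925 over all coding genes).

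Hnrnpa3, an hnRNP gene of the A family, held 348 flank tags in untreated cells, 194 after LPS and 10 in the input, a ratio of 0.679 (0.567 to 0.812). Its flank was 9.59 times as dense as its body, but only 48.9% of the positions in that body are unique, so body tags are undercounted. Hnrnph1 (251, 158 and 12 tags), Hnrnpl (221, 97 and 11) and Hnrnpul1 (159, 85 and 6) also had fewer flank tags after LPS, with ratios of 0.767, 0.535 and 0.652 and intervals below 1. Srsf3, the smallest SR protein, was the exception among the 5 densest flanks free of other coding genes with 221, 216 and 9 tags, a ratio of 1.19 (0.983 to 1.44). Over 43 genes the median flank ratio was 0.938, with 2 genes higher, Prpf38a (7 and 23 tags) and Snrpd2 (10 and 14 tags), and 10 lower by the rule of size. Over all coding genes with such a flank and enough tags the median was 0.797, with 17.2% higher and 39.6% lower.

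The wider splicing machinery gave a point of reference, from a list of 112 genes outside the symbol rule of which 109 were found. At promoters their median ratio was 0.938, with 3 of 107 genes higher and 14 lower (8.32% and 29.0% of all coding genes). A peak was present at 107 promoters in each Ser5 library (48.0% and 45.9% of all coding genes). In bodies the median was 0.969, with 9 of 105 higher and 14 lower (12.7% and 25.3% of all coding genes). Single genes went in both directions. Syf2, a spliceosome protein, had 218 promoter tags in untreated cells, 338 after LPS and 23 in the input (1.89, 1.59 to 2.25) and a body ratio of 2.41 (1.64 to 3.58). Mbnl1, an alternative splicing regulator, had 128, 42 and 16 promoter tags (0.400, 0.275 to 0.571) and a body ratio of 0.446. The SR-like gene Tra2a had a body ratio of 2.02 (1.56 to 2.61) with 1.06 at its promoter.

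Splicing regulators known from neurons and epithelium, such as Nova1, Rbfox1 and Esrp1, also carried little Ser5, these 3 with at most 5 promoter tags each in untreated cells. Of the 15 genes of this list, which also holds the synaptic gene Snap25, 2, Elavl4 and Rbfox2, had a promoter peak in untreated cells and 0 after LPS, with 31 and 43 promoter tags before LPS, 11 and 13 after it, and 10 and 11 in the input. The median over the 15 was 0.262 TPM per kb in untreated cells, 0.160 after LPS and 0.398 in the input.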

How the data were processed

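ChIP-Seq tags of untreated Ser5, Ser5 after LPS and input DNA were used as deposited. The authors trimmed 76-base reads, aligned them to mm9 with Bowtie and kept unique matches with at most 2 mismatches, and the files give tag coordinates with tags of 45, 30 and 36 bases. The methods give the lengths of the Ser5 libraries the other way round, and the labels were kept. Per the labels and methods, peaks were called per library against the input with MACS at a p-value of 1e-05, and the deposited peak score is the negative log10 of that p times 10. Versions of both tools are not given in the sources used here.

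Tag 5′ ends were counted within 1 kb of each gene 5′ end, in the body from there to the gene end (genes of at least 2 kb), and in the 2 kb past it, duplicates included, and scaled to tags on chromosomes 1 to 19 and X. Of the tags in the regions of the splicing genes 98.9% (untreated), 99.98% (LPS) and 99.8% (input) began with 30 bases unique in mm9. Counts, exact Poisson intervals, exact conditional intervals of ratios and order-statistic intervals of medians were computed with scipy 1.17.1 and numba 0.67.0 on Python 3.11.15 (pandas 2.3.3, numpy 2.4.6), and figures with matplotlib 3.10.9. The counting was tested on simulated data. A peak counted with an overlap of at least 1 bp. Promoter sequences were read from the mm9 genome.

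The splicing genes and the lists were chosen with earlier results of these data known. Genes named with values were the highest and lowest promoter density per role, the 5 highest and 5 lowest LPS ratios at promoters and in bodies, those without a peak, the 3 highest and 3 lowest promoter to body ratios among genes with enough tags, and the 3 whose promoter and body ratios differed most. Others were chosen after their values were seen. 1 gene and 1 promoter sequence that this rule would name are not reported here. Alternatives were 1 tag per position and strand, 5′ ends moved by 75 bp, scaling to tags outside peaks, other coding starts, windows of 500 bp, minima of 50 and 200 tags, unique tags, unshared regions, bodies above the input, a ratio of at least 2, and for peaks a score of at least 100 or a 5′ end inside the peak.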

Additional observations from a re-analysis of the deposited data

How the results depend on the processing

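Counting error was the only error that could be measured, and depth limits most single body ratios. No paired analysis was possible because there was 1 library per condition. Of 107 values or counts over the splicing genes under an alternative, 87 stayed within the limits set and 20 moved. The number of promoters lower after LPS, 12 of 60, was 7 with 1 tag per position and strand, 6 when scaled to tags outside peaks, 7 of 34 without shared regions and 2 at a ratio of at least 2. The median promoter ratio was 0.943 when scaled to tags outside peaks. The number of bodies higher, 1, was 2 with 1 tag per position, 3 when scaled to tags outside peaks, 2 with unique tags, and 0 without shared regions, at a ratio of at least 2, with at least 200 tags or in bodies above the input. The number of bodies lower, 6, was 2 at a ratio of at least 2 and 3 of 38 with at least 200 tags. With windows of 500 bp the promoter to body ratio was 15.8 in untreated cells and 14.5 after LPS. Without shared regions 34 and 29 of 36 genes were at least 5 times the input and 34 and 34 had a peak. Shares of all coding genes at the same settings are not set beside these counts and can move as well. The counts show how far the calls depend on a setting, not how the splicing genes compare with all coding genes. The minimum of 200 tags and the restriction to bodies above the input were chosen after seeing the data. A value of a single gene stayed if it lay within the counting interval of its main value. Only main ratios past the rule of size could be labelled reversed. The alternatives recount mostly the same tags, so staying is a weak check. By these rules 708 values stayed, 10 moved, and Prpf6 reversed to 1.03 within 500 bp of its 5′ end. The cause was not tested.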

Other observations

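Genes with a proteasome or ribosomal protein symbol prefix gave values beside those of the splicing genes. Of the 42 genes whose symbol starts with the proteasome prefix, 40 had enough promoter tags, with a median ratio of 0.969. By the rule of size 5 of these were higher and 6 lower after LPS (8.32% and 29.0% of all coding genes). In their bodies 10 of 41 were higher and 2 lower, with a median of 1.10 and ratios from 0.633 to 3.71. Among the splicing genes 1 was higher and 6 lower of 60. Of all coding genes 12.7% were higher and 25.3% lower in the body. Of 140 genes with the ribosomal protein prefix 72 were at least 2 kb long, and 81 had a promoter peak in untreated cells. What the other matches to the prefix are was not examined. For the 82 with enough promoter tags the median was 0.912, with 0 higher and 3 lower (8.32% and 29.0% of all coding genes). These lists were chosen by symbol, and the differences between them were not tested.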
